A study of Rattus norvegicus with 9 samples.

Results

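The enzymes that build cholesterol were followed through dehydration in the rat supraoptic nucleus, a small hypothalamic nucleus packed with large neurosecretory cells that release vasopressin or oxytocin into the blood. The set was Hmgcs1, Idi1, Fdps, Fdft1, Sqle, Lss, Cyp51 and Dhcr7, and every probe set annotated to exactly 1 of these symbols was taken. A probe set is the group of array probes that reports 1 transcript sequence. This gave 20 probe sets of the 8740 on the array that are not Affymetrix controls, covering 7 of the 8 genes: 5 for Cyp51, 4 for Fdft1, 3 each for Fdps and Lss, 2 each for Idi1 and Dhcr7 and 1 for Sqle. Hmgcs1 had no such probe set in the annotation used, so it was not analysed here, and neither was Srebf2.

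The animals were Sprague Dawley rats, all male and 10 to 12 weeks old. There were 3 groups of 3 arrays each: controls, animals dehydrated for 1 day and animals dehydrated for 3 days. The labels name no genotype, transgene or drug, do not say how dehydration was brought about, and mark the arrays of each group with the letters a, b and c without saying what a letter stands for. They also do not say whether an array carries RNA of 1 animal or of a pool, so each p-value reflects only how far these samples spread, and that spread may be technical.

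Cells make cholesterol from acetyl-CoA through mevalonate and a chain of isoprenoid intermediates that ends in the linear hydrocarbon squalene, which is closed into lanosterol and then trimmed and reduced to cholesterol. Transcription of these genes is driven by SREBP-2, a membrane-bound factor released when sterol in the endoplasmic reticulum is low, which binds sterol regulatory elements in promoters together with NF-Y, which recognises CCAAT boxes, and Sp1, which recognises GC boxes. In the brain nearly all cholesterol is made locally, since the blood-brain barrier keeps lipoproteins out, with oligodendrocytes and astrocytes as main producers.

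Because these genes are known for shared control, their promoters are shown first. RefSeq promoters (assembly GRCr8) matched 6 of the 8 genes, all but Fdft1 and Sqle. The last 150 bases before the annotated transcription start are printed 5′ to 3′ for the 5 of these 6 genes that were also measured, with capitals marking CCAAT and GGGCGG on either strand.
Fdps, chr2:176804817-176804966, minus strand: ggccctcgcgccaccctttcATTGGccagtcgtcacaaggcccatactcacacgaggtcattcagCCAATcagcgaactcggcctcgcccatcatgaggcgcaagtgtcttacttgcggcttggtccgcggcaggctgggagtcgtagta
Idi1, chr17:66547525-66547674, minus strand: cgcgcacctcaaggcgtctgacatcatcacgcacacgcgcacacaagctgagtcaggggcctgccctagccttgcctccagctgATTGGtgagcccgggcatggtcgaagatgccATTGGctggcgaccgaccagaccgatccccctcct
Lss, chr20:12118231-12118380, minus strand: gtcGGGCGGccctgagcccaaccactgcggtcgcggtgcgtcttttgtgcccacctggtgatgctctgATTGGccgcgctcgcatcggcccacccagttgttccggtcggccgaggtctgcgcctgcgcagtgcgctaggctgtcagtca
Cyp51, chr4:30991543-30991692, plus strand: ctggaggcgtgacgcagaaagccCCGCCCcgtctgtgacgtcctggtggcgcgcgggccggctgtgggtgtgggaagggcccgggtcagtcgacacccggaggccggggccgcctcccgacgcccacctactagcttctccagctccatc
Dhcr7, chr1:208444284-208444433, plus strand: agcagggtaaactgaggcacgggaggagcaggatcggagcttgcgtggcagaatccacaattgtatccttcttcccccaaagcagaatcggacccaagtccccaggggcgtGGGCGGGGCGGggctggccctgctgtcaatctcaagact
Over 250 bases before the start, CCAAT was found at 2 places each for Fdps and Idi1, at 1 for Lss and at 0 for Cyp51 and Dhcr7. GGGCGG was found at 2 places each for Lss and Dhcr7, at 1 each for Fdps and Cyp51 and at 0 for Idi1; the 2 Dhcr7 matches overlap each other. The unmeasured Hmgcs1 held 2 matches to CCAAT and 4 to GGGCGG. The 9-letter form TCACNCCAC of the sterol regulatory element was found in 0 of the 6. Of 33469 rat promoters scanned over the same 250 bases and both strands, 34.0% held CCAAT, 30.5% held GGGCGG and 0.974% held TCACNCCAC. A match is a string of letters and not a measured binding site, and no match says only that these letters are not in this window.

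The signals are MAS5 intensities on a linear scale, with a trimmed mean of about 100 on every array (100.12 to 100.15). Control c and 1-day c stood apart in their brightest probe sets: the highest signal was 2104.8 and 2238.9 on these arrays, against 3867.3 to 6294.9 on the other 7. Of the markers of the labelled tissue, the Avp probe set M64785_g_at read 1621.8 to 5678.3 over the 9 arrays. A second Avp probe set, M25646_at, read 8.2 on control c and 0.1 on 1-day c, against 653 to 2739.3 on the others, and the remaining one, M64785_at, was dim throughout (1.8 to 14.6). The Oxt probe set K01701_at read 208.3 on control c and 272 on 1-day c, against 2331.1 to 4356.1 elsewhere. The member probe sets lay mostly far below these brightest levels. Member values are therefore given array by array.

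In short, no member passed the test at either time, which does not show that the transcripts stayed at their control level. The 95% intervals left out both a halving and a doubling for only 9 of the 18 tested member probe sets at 1 day. At 3 days they did so for 8. The median member difference from control was -0.08 log2 units at 1 day. At 3 days 15 of the 18 tested member probe sets had a lower mean than controls, with a median log2 difference of -0.24; arrays a and c of that group were low and array b was not. Member differences from control ran from -0.72 to 0.60, and each had a 95% interval that included 0 in the main fit, which leaves out the array letters. With the letter as a block in limma, 1 member, Cyp51 rc_AA963449_s_at, had an unadjusted p of 0.0251 at 3 days (adjusted p = 0.873). Differences are on the scale log2(signal + 4), which understates changes of dim probe sets, and each comes with its standard error from limma, fitted over 3 arrays per group. In bulk tissue, fewer cells of a type and less RNA per cell cannot be told apart.

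**Figure D1:**
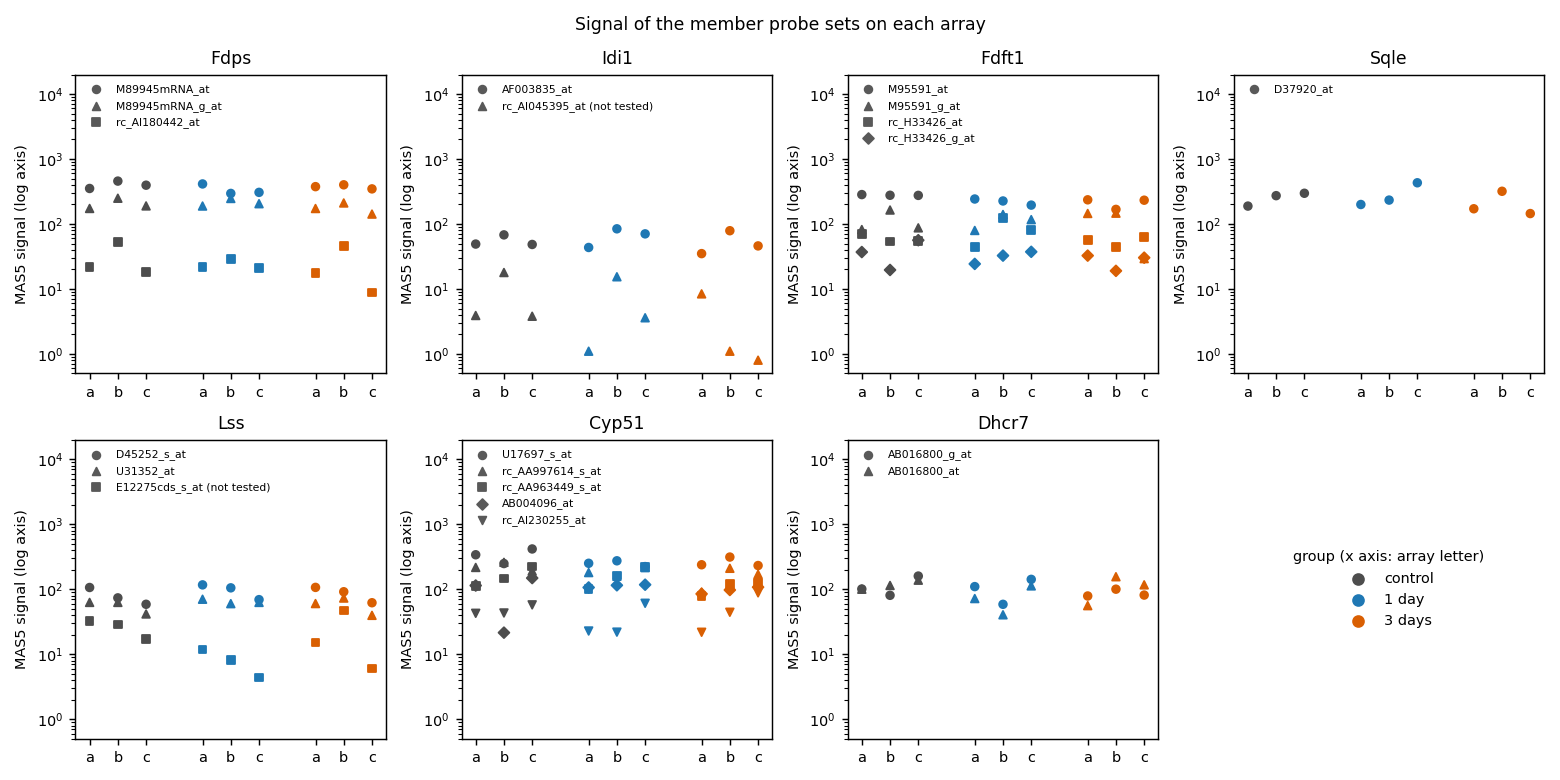
MAS5 signal (vertical, log axis) of each member probe set on each of the 9 arrays (horizontal, array letter within group), 1 panel per gene, with marker shapes for probe sets and colours for groups. Points of the 3 groups overlap for all tested probe sets except Fdft1 M95591_at, whose 3 controls (275.7 to 283.7) lie above all dehydrated arrays.

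Idi1 encodes isopentenyl-diphosphate isomerase, which turns isopentenyl diphosphate into its reactive isomer so that chain building can start. Its probe set AF003835_at gave 49.1, 68 and 48.4 on controls a, b and c, 43.5, 84.3 and 70.5 at 1 day, and 35, 78.8 and 46 at 3 days. The b array was the highest of its group at every time, and the groups overlapped throughout. The differences were 0.21 ± 0.38 at 1 day and -0.10 ± 0.38 at 3 days. Its second probe set, rc_AI045395_at, read 3.9, 17.9 and 3.8 in controls, 1.1, 15.4 and 3.6 at 1 day and 8.4, 1.1 and 0.8 at 3 days. It was below the filter on low signal and was not tested.

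Fdps encodes farnesyl diphosphate synthase, which joins isoprene units into the branch-point intermediate for sterols, dolichol and protein prenylation. The probe set M89945mRNA_at read 352.2, 457.7 and 395.7 in controls, 413.7, 295.6 and 306.9 at 1 day and 376, 401.1 and 347.2 at 3 days. Of the 1-day arrays, b and c lay below every control while a lay within them, and the 3-day arrays ran from just below the lowest control into the control range. The difference was -0.25 ± 0.23 at 1 day and -0.09 ± 0.23 at 3 days. A second probe set named for the same sequence record, M89945mRNA_g_at, read 173.4, 249.2 and 189.8 in controls, 189, 247.1 and 205.3 at 1 day, and 173.1, 210.7 and 142.1 at 3 days, with differences of 0.07 ± 0.26 and -0.22 ± 0.26. The b array was again the highest in each group. The dim rc_AI180442_at read 21.7, 52.4 and 18.2 in controls, 21.9, 28.6 and 20.8 at 1 day and 17.5, 45.7 and 8.8 at 3 days, and differed by -0.21 ± 0.58 and -0.41 ± 0.58. Across the 9 arrays M89945mRNA_g_at and rc_AI180442_at moved together (r = 0.85, a description over arrays that share groups and letters).

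Fdft1 encodes squalene synthase, which joins 2 farnesyl units head to head and is the first step committed to sterols. Its brightest probe set, M95591_at, was the only tested member whose groups did not overlap against control: the controls read 283.7, 276.9 and 275.7, the 1-day arrays 242.5, 226.2 and 195.3, and the 3-day arrays 235.7, 167.8 and 232.5. All 6 dehydrated arrays lay below all 3 controls, which were close together (278.8 ± 4.314, SD, n = 3, against 221.3 ± 23.97 and 212.0 ± 38.31). The difference was -0.33 ± 0.23 at 1 day, with a 95% interval of -0.85 to 0.18, and -0.41 ± 0.23 at 3 days, with an interval of -0.92 to 0.11. Neither passed the test across all probe sets (limma unadjusted p = 0.181 and 0.110, adjusted p = 1.00 for both). With 1 array left out the difference ran from -0.40 to -0.25 at 1 day and from -0.49 to -0.25 at 3 days. The 3-day value nearest 0 was the one without 3-day b.

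The 3 other Fdft1 probe sets did not share that pattern. M95591_g_at, named for the same sequence record, read 82.1, 164.1 and 87.2 in controls, 79.5, 140 and 116.7 at 1 day, and 145.2, 146.7 and 29.3 at 3 days, so that the 3-day arrays b and a lay among the controls and c far below every other array. The difference was 0.05 ± 0.55 at 1 day and -0.27 ± 0.55 at 3 days, and its correlation with M95591_at over the 9 arrays was -0.20. The probe set rc_H33426_at read 70.7, 53.8 and 54.8 in controls, 44.4, 123 and 81.1 at 1 day, and 57.1, 44.7 and 63.3 at 3 days (0.35 ± 0.37 and -0.11 ± 0.37). Its partner rc_H33426_g_at read 37, 19.6 and 56.3 in controls, 24.3, 32.6 and 37.3 at 1 day and 32.6, 19 and 30.3 at 3 days, and differed by -0.15 ± 0.44 and -0.34 ± 0.44; without control c the 3-day difference was -0.02. For squalene synthase the direction at 1 day thus depended on the probe set, with 2 higher and 2 lower, while all 4 had a lower mean at 3 days.

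Sqle encodes squalene epoxidase, an oxygen-dependent and rate-controlling step that adds the epoxide needed for ring closure. Its single probe set D37920_at read 188.7, 273.1 and 297.2 in controls, 199.6, 233.4 and 431.1 at 1 day, and 171.6, 319 and 144.8 at 3 days. The highest value of all was 1-day c and the 2 lowest were 3-day a and c, while 3-day b was above every control. The differences of 0.13 ± 0.38 and -0.31 ± 0.38 were both smaller than their standard error. Sqle had the highest correlation among the members with the common member profile described below, which includes Sqle itself (r = 0.84).

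Lss encodes lanosterol synthase, which folds squalene epoxide into the 4-ring sterol skeleton, and was the only gene whose tested probe sets all had higher means at both times. D45252_s_at read 106.6, 73.8 and 58.8 in controls, 117, 105.3 and 69.3 at 1 day, and 107, 91.7 and 62.1 at 3 days (0.28 ± 0.34 and 0.13 ± 0.34). In each group array a was the highest and array c the lowest. U31352_at read 62.8, 62.8 and 41.7 in controls, 70.3, 60.1 and 62.8 at 1 day, and 60.3, 73.3 and 39.7 at 3 days (0.21 ± 0.32 and 0.03 ± 0.32), and its 3-day difference was -0.01 after quantile normalization and after median centring. The third, E12275cds_s_at, was too dim to be tested: it read 32.2, 28.6 and 17.2 in controls, 11.8, 8.2 and 4.4 at 1 day and 15.1, 47.4 and 6 at 3 days. Its 1-day arrays all lay below the controls, opposite to the mean differences of the other Lss probe sets.

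Cyp51 encodes lanosterol 14α-demethylase, the cytochrome P450 that removes the first methyl group from lanosterol, and had the most probe sets. U17697_s_at read 340.2, 249.1 and 417.8 in controls, 251.4, 274.6 and 223.6 at 1 day, and 238.7, 313.6 and 232.2 at 3 days. Controls a and c lay above all 6 dehydrated arrays, and control b lay among them. The difference was -0.39 ± 0.26 at 1 day and -0.34 ± 0.26 at 3 days; without control c it was -0.22 and -0.17, and without control b -0.59 and -0.53. The probe set rc_AA997614_s_at read 216.9, 260 and 190.8 in controls, 180.9, 158.4 and 215.5 at 1 day, and 90.5, 210.4 and 170.2 at 3 days. Its 3-day difference of -0.56 ± 0.32 ranked first among the members at 3 days by the test (limma adjusted p = 1.00). It rested in large part on 3-day a, and was -0.22 without that array.

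The remaining Cyp51 probe sets gave a mixed picture. The probe set rc_AA963449_s_at read 111.3, 147.2 and 223.5 in controls, 101.5, 163.6 and 219.1 at 1 day, and 78.7, 120 and 124.4 at 3 days. Array a was the lowest and c the highest in every group, and the 3-day arrays were lower than the control of the same letter in all 3 pairs. The differences were -0.00 ± 0.36 and -0.53 ± 0.36; with the letter as a block in limma the 3-day difference had an unadjusted p of 0.0251 and an adjusted p of 0.873. Without control c it was -0.27, and without 3-day a it was -0.33. AB004096_at was the only Cyp51 probe set with higher means at both times (0.60 ± 0.55 and 0.38 ± 0.55). This came from 1 array: control b read 21.5 while controls a and c read 114.3 and 148.9 and the dehydrated arrays 85 to 117.7, and without control b the differences turned to -0.20 and -0.42. The dim rc_AI230255_at read 42.7, 43.2 and 57.6 in controls, 22.8, 21.9 and 60.9 at 1 day and 21.8, 44.3 and 88.2 at 3 days, and differed by -0.53 ± 0.52 and -0.08 ± 0.52.

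Dhcr7 encodes 7-dehydrocholesterol reductase, the last step to cholesterol, whose loss in humans causes Smith-Lemli-Opitz syndrome. AB016800_at read 100.2, 114.5 and 138.1 in controls, 72, 40.5 and 112.8 at 1 day, and 56, 156.1 and 117.1 at 3 days. At 1 day arrays a and b were below all controls and c was among them, and at 3 days the arrays ran from below to above the controls. The 1-day difference of -0.72 ± 0.43 was the largest member difference in size at that time (limma adjusted p = 1.00); without 1-day b it was -0.36. At 3 days it was -0.20 ± 0.43, and 0.21 without 3-day a. AB016800_g_at read 101.1, 80.8 and 159.9 in controls, 110, 58.7 and 142.2 at 1 day, and 78.9, 100.4 and 81.5 at 3 days, with differences of -0.16 ± 0.37 and -0.33 ± 0.37; without control c the 3-day difference was -0.06.

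**Figure D2:**
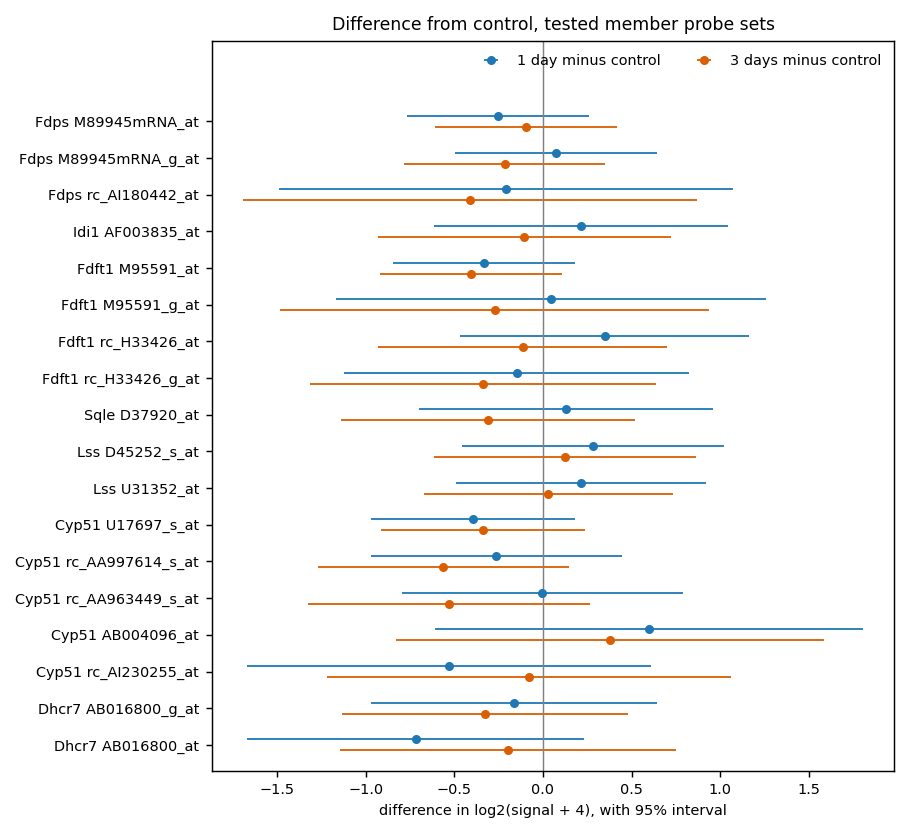
Difference from control in log2(signal + 4) (horizontal) for the 18 tested member probe sets (vertical), with 95% intervals from limma over 3 arrays per group; blue is 1 day and orange is 3 days. In this fit, which leaves out the array letters, all intervals cross 0. Of the 18 points of each colour, 15 orange and 10 blue ones lie to the left of 0.

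The first comparison asks what had changed after 1 day. Of the 18 tested member probe sets, 0 passed an adjusted p of 0.05 in limma, where 0% of all 5247 tested probe sets did, and 0 had an unadjusted p under 0.05, against a background of 1.01%. Means were lower for 10 members and higher for 8, with 47.3% of all tested probe sets lower, and the member median was -0.08 beside 0.02 for all tested. Groups did not overlap for 1 member that was lower (Fdft1 M95591_at), where 1.58% of all tested probe sets were lower in that way, and for 0 members that were higher, where 2.63% were. At this number of arrays the intervals were wide, reaching 0.51 to 1.28 log2 units to either side, and they left out a halving for 13 members and a doubling for 12.

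The second comparison asks what had changed after 3 days, and uses the same controls as the first. In limma 0 of the 18 members passed the adjusted threshold (0% of all tested), and 0 had an unadjusted p under 0.05 (1.72% of all tested). Means were lower for 15 and higher for 3, with 48.3% of all tested probe sets lower, and the member median was -0.24 beside 0.02. The exceptions were both tested Lss probe sets and Cyp51 AB004096_at. The count of 15 ran from 12 (without control b) to 16 (without control c) when 1 array was left out, and was 13 without 3-day c and 16 without control c and 1-day c together. Groups did not overlap for 1 lower member, again Fdft1 M95591_at (3.01% of all tested), and for 0 higher members (4.73% of all tested). The intervals left out a doubling for 16 members and a halving for 9. With 1 probe set per gene, the brightest, the median was -0.31 over the 7 genes. The count of 15 is no test, since probe sets of 1 gene and arrays of 1 group are not independent.

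Between 1 and 3 days, 14 members were lower at 3 days and 4 were higher, with 49.9% of all tested probe sets lower, and the median was -0.20 beside 0.00 for all tested. None of the 18 members was called by limma (0% of all tested; smallest member adjusted p = 0.998), 0 had an unadjusted p under 0.05 (1.83%), and groups did not overlap for 0 lower (2.67%) and 0 higher members (3.05%). The most negative member differences were Cyp51 rc_AA963449_s_at (-0.53 ± 0.36), Fdft1 rc_H33426_at (-0.46 ± 0.37) and Sqle (-0.44 ± 0.38). Each was smaller without 1 of the 1-day arrays: -0.28 for rc_AA963449_s_at and -0.11 for Sqle without array c, and -0.13 for rc_H33426_at without array b. With the letter as a block in limma, rc_AA963449_s_at had an unadjusted p of 0.0257 and an adjusted p of 0.77. Dhcr7 AB016800_at (0.52 ± 0.43) and Cyp51 rc_AI230255_at (0.45 ± 0.52) had higher means at 3 days than at 1 day. Without 1-day b these differences were 0.16 and 0.22, and without 3-day c that of rc_AI230255_at turned to -0.011. In sign, 10 members were below control at both times, 3 were above at both, 5 were above at 1 day and below at 3 days, and 0 went the other way.

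**Figure D3:**
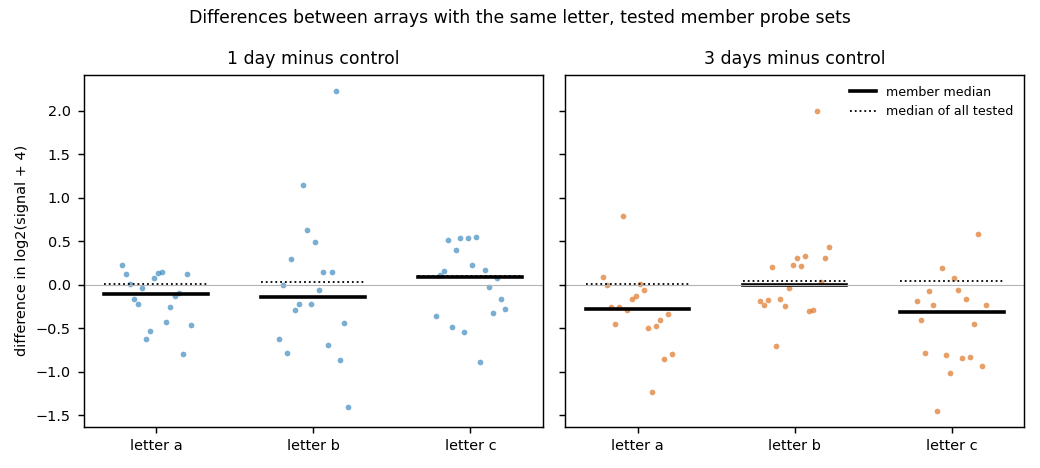
Difference in log2(signal + 4) (vertical) between the dehydrated and the control array of the same letter (horizontal) for the 18 tested member probe sets, 1 point each, with their median (thick line) and that of all 5247 tested probe sets (dotted). The 3-day medians are -0.28 for letter a and -0.32 for letter c but 0.00 for letter b.

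Arrays with the same letter deviated together, so the differences were also read letter by letter. At 3 days the member median was -0.28 for letter a and -0.32 for letter c, with 15 of 18 members lower in each, but 0.00 for letter b, with 9 of 18 lower. The median of all tested probe sets was 0.01, 0.04 and 0.04 for these pairs. At 1 day the member medians were -0.11, -0.14 and 0.09 for letters a, b and c, with 11, 11 and 8 of 18 lower. The shift at 3 days was thus present in 2 of the 3 pairs. Members lower in all 3 pairs at 3 days were M89945mRNA_g_at and rc_AI180442_at of Fdps, M95591_at and rc_H33426_g_at of Fdft1, and rc_AA997614_s_at and rc_AA963449_s_at of Cyp51, which is 6 of 18, where 13.2% of all tested probe sets were lower in all pairs. Among these, M89945mRNA_g_at was nearly tied for letter a (173.1 at 3 days against 173.4 in control), as was rc_H33426_g_at for letter b (19 against 19.6). Only Lss D45252_s_at was higher in all 3 (16.9% of all tested), by just 0.01 for letter a. At 1 day the members lower in all 3 pairs were Fdft1 M95591_at and Dhcr7 AB016800_at, 2 of 18, where 9.28% of all tested probe sets were, and 1 was higher in all 3 (Lss D45252_s_at; 16.8% of all tested). Between 1 and 3 days the member medians were -0.17, 0.13 and -0.34, with 5 members lower in all 3 pairs (12.9% of all tested) and 0 higher (12.5%).

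To show how the members varied by array, each tested probe set was standardised over the 9 arrays and the 18 were averaged. The mean standardised level was 0.13, 0.22 and 0.38 on controls a, b and c, -0.17, 0.05 and 0.29 at 1 day, and -0.54, 0.24 and -0.60 at 3 days. The low arrays were 3-day a and 3-day c, where 6 and 4 of the 18 members were above their own mean, while on 3-day b 14 were, more than on any control. On 1-day a 6 were as well, at a higher mean level. Of all tested probe sets with 1 symbol, 46.6% to 56.8% were above their own mean on each array. The 3-day group was therefore not uniform for these enzymes. Arrays 3-day a and c also had the 2 highest ratios of 3′ to 5′ Gapdh control signal, a measure of RNA integrity and labelling, at 1.121 and 1.545 against 0.850 to 1.092 on the other 7 arrays; its part in the result was not tested. The corresponding beta-actin ratios were 1.087 and 1.434 on these arrays, within the 0.743 to 1.478 of the others.

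**Figure D4:**
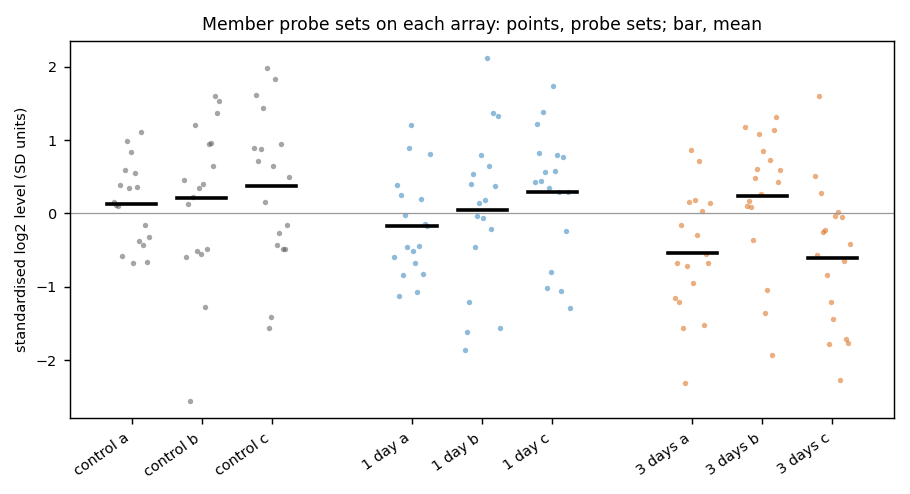
Standardised log2 level (vertical, SD units) of the 18 tested member probe sets (points) on each of the 9 arrays (horizontal), with the mean over members as a bar. The bars of 3-day a and c stand at -0.54 and -0.60 and that of 3-day b at 0.24, inside the control range of 0.13 to 0.38.

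Members did not move as a tight block over the 9 arrays. Pairs of probe sets for the same gene had a median correlation of 0.28 (21 pairs, -0.29 to 0.85), and pairs for different member genes had 0.04 (132 pairs, -0.87 to 0.81), beside 0.00 over pairs of all tested probe sets. Within genes the 2 tested Lss probe sets had 0.72 and the 2 for Dhcr7 had 0.63. The mean member profile averages all tested members, so each member is part of what it is compared with. This raises its correlation with the profile by construction. The correlation with the mean member profile was 0.84 for Sqle, 0.71 and 0.70 for Cyp51 rc_AA997614_s_at and rc_AA963449_s_at, 0.65 for Fdps M89945mRNA_g_at and 0.63 for Idi1. It was -0.04 for Fdft1 M95591_at and -0.22 for Lss D45252_s_at. So the member with the cleanest separation of groups was not one that followed the common profile.

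The non-member probe sets most like the mean member profile, by Pearson's r over the 9 arrays, were Ndufb11 (0.967), a subunit of mitochondrial complex I, Psma5 (0.958), a proteasome subunit, Gde1 (0.950), a glycerophosphodiester phosphodiesterase, Twf1 (0.930), an actin-binding protein, and Edf1 (0.930), a transcriptional coactivator. They were the 5 highest of all tested probe sets with 1 symbol and none is an enzyme of sterol synthesis. Ndufb11 read 160.1, 140.9 and 163.2 in controls, 120.1, 148.6 and 169.1 at 1 day, and 90.4, 169.2 and 77.5 at 3 days, so its lowest arrays were 3-day c, 3-day a and then 1-day a, as in the member profile that chose it.

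Other enzymes of the pathway were read from a wider list of 16 genes, of which 9 had a probe set and 12 of 14 probe sets were tested. None passed (0 of 12 in each comparison), and means were lower for 4 at 1 day (median 0.05, mean -0.07) and 7 at 3 days (median -0.06, mean -0.12). Of all tested probe sets 0% passed, and 47.3% were lower at 1 day and 48.3% at 3 days. Msmo1, the sterol-C4-methyl oxidase that acts after Cyp51, had 2 probe sets that differed from each other. E12625cds_at read 252.8, 270.6 and 233.7 in controls, 229.4, 238.2 and 62.1 at 1 day, and 221.4, 105.6 and 122.1 at 3 days, all 3 below the controls, with differences of -0.72 ± 0.47 and -0.81 ± 0.47; the 1-day value rested on 1-day c and was -0.11 without it. The brighter Msmo1 probe set rc_AI172293_at differed by 0.17 ± 0.31 and -0.22 ± 0.31. Upstream of the measured members, Mvk (mevalonate kinase) had higher means at 3 days in both probe sets, M29472_at (0.42 ± 0.31) and rc_AA924198_s_at (0.44 ± 0.41). Also upstream of them, Acat2 (acetoacetyl-CoA thiolase) rc_AA859980_at stood at -0.64 ± 0.41 at 3 days, with a range of -1.06 to -0.26 when 1 array was left out. The brighter Acat2 probe set rc_AA859980_g_at stood at -0.08 ± 0.36. Mvd, which makes isopentenyl diphosphate, had -0.97 ± 0.68 at 1 day, where array c read 9.2 against 67.7 to 121.1 on all other arrays; without that array the difference was 0.05. Nsdhl, a sterol C4 decarboxylase, was dim and stood at -0.95 ± 0.54 between 1 and 3 days.

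Of the regulators of the pathway, Srebf1, which encodes SREBP-1, read 178.7, 100.4 and 118.7 in controls, 143.1, 104.3 and 115.6 at 1 day, and 171.1, 105.3 and 101.6 at 3 days. Its differences were -0.10 ± 0.31 and -0.07 ± 0.31. Insig1, the sterol-responsive anchor that keeps the SREBP complex in the endoplasmic reticulum, gave -0.18 ± 0.26 and -0.17 ± 0.26 with L13619_at and -0.31 ± 0.28 and -0.08 ± 0.28 with L13619_g_at. Groups overlapped for both genes. With 1 array left out the differences of Srebf1 ran from -0.27 to 0.13 at 1 day and from -0.31 to 0.16 at 3 days. The direction of Srebf1 is therefore not settled. Those of Insig1 L13619_at ran from -0.31 to 0.01 at 1 day and from -0.28 to -0.06 at 3 days. Those of L13619_g_at ran from -0.46 to -0.20 at 1 day and from -0.34 to 0.10 at 3 days. Each Insig1 probe set thus stayed below control at 1 of the times and crossed 0 at the other.

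Genes of sterol uptake, transport and regulation gave 24 tested probe sets, of which 0 passed limma's adjusted threshold, and means were lower for 15 at 1 day and for 12 at 3 days. The shares over all tested probe sets were 0% passing, 47.3% lower at 1 day and 48.3% lower at 3 days. The 3-day median was -0.00 while the mean was 0.10. The smallest p was that of Scarb1, the HDL receptor, with rc_AA874843_s_at at 74.4, 95.5 and 152.3 in controls, 242.8, 317.7 and 124.8 at 1 day, and 146.5, 172.6 and 312.8 at 3 days. Its differences were 1.02 ± 0.42 and 0.93 ± 0.42 (limma unadjusted p = 0.0324 and 0.0479, adjusted p = 1.00 for both), and the other Scarb1 probe sets stood at 0.30 and -0.70 at 1 day and at -0.04 and -0.09 at 3 days. Apoe, the main apolipoprotein of brain, made by astrocytes, read 2381.1, 2022.1 and 500.6 with X04979_at in controls, 2473.7, 2208.3 and 438.8 at 1 day, and 3308.7, 3125.4 and 4295.2 at 3 days. The 3-day arrays lay above all others, by 1.40 ± 0.69 against control, and the difference was 0.69 without control c and 1-day c, the arrays with few bright values. The second Apoe probe set S76779_s_at stood at 0.53 ± 0.28 and turned to -0.06 after quantile normalization, so no direction is given for Apoe. At 1 day Scp2, a sterol carrier protein, stood at 0.48 ± 0.33, and Por E01524cds_s_at, the reductase that feeds electrons to Cyp51 and Sqle, at -0.50 ± 0.39 (-0.90 to -0.18 with 1 array left out), while the other tested Por probe sets, M10068mRNA_s_at and rc_AI137856_s_at, stood at 0.03 and -0.26.

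Fatty acid synthesis, which SREBP-1 drives in parallel, gave 19 tested probe sets, with 0 called, means lower for 9 at 1 day and for 14 at 3 days, and a 3-day median of -0.12. Over all tested probe sets 0% were called, and 47.3% were lower at 1 day and 48.3% at 3 days. All 4 tested probe sets of Me1, the cytosolic malic enzyme that supplies NADPH, had lower means at 3 days. M26594_at read 112.6, 100.8 and 117.5 in controls, 119, 77.1 and 103.6 at 1 day, and 88, 63.3 and 70.5 at 3 days, with no overlap between controls and 3 days and a difference of -0.56 ± 0.27. The others were rc_AI008020_at at -0.52 ± 0.28, rc_AI171506_g_at at -0.75 ± 0.46 and rc_AI171506_at at -0.43 ± 0.55. With 1 array left out, rc_AI171506_g_at ran from -1.14 to -0.37 and rc_AI171506_at from -0.86 to 0.09. Of Scd2, the stearoyl-CoA desaturase of brain, U67995_s_at stood at -0.69 ± 0.56 and M15114_g_at at -0.42 ± 0.41 at 1 day, while rc_AA875269_at, AF036761_at and S75730_at stood at 0.11, 0.07 and 0.40. With 1 array left out, U67995_s_at ran from -1.32 to -0.32 and M15114_g_at from -0.81 to 0.00. Acsl3, an acyl-CoA synthetase, stood at 0.55 ± 0.29 at 1 day.

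Markers of the cells that make most brain cholesterol were read beside the members. Of 18 oligodendrocyte genes 9 had a probe set, and their summed signal ran from 7384 to 11940 in controls, 5476 to 12540 at 1 day and 5279 to 11920 at 3 days, with 10 of 15 tested probe sets lower at 1 day and 10 at 3 days, not all the same ones. Of 12 astrocyte genes 9 had one, with sums of 10240 to 17380, 11240 to 17280 and 18090 to 20200 and 11 of 16 tested probe sets higher at 1 day and 11 at 3 days, again not all the same ones. Over all tested probe sets, means were lower for 47.3% at 1 day and for 48.3% at 3 days. Sums of linear signal follow the brightest probe sets, and control c and 1-day c read low in some of these. Aldoc M63656_s_at read 1283.1 and 1263.1 on them, against 2659.7 to 4356.2 on the others. The 5 astrocyte probe sets with lower means at 3 days included Aqp4 (-0.28) and Slc1a3 X63744_g_at (-0.49). The summed member signal ran from 2491 to 2881, 2304 to 2697 and 2074 to 2689. Neuronal sums ran from 5310 to 7209, 6319 to 6633 and 7160 to 7917, and magnocellular sums from 7093 to 12370, 7602 to 15000 and 15350 to 18770. The magnocellular sums hold Oxt K01701_at, which read only 208.3 on control c and 272 on 1-day c. Of 14 tested magnocellular probe sets, 10 had higher means at 3 days and 4 had lower ones. Microglial sums ran from 1502 to 1540, 1640 to 2258 and 1754 to 1846, and those of vessel and blood cells from 3430 to 3668, 4057 to 5516 and 2224 to 2973. The last sums were mostly globin: group means were 1614, 2064 and 998.6 for Hbb and 1059, 1587 and 756.9 for Hbb-b1. The vessel markers did not share that pattern. Means were 36.23, 31.63 and 48.67 for Pecam1 and 75.53, 56.93 and 70.9 for Flt1. For Slc2a1 they were 479.6, 429.6 and 423.6 with S68135_s_at and 191.9, 243.6 and 218.1 with M13979_at. No marker probe set was at 0 on any array, and the part of cell makeup in the member values was not tested.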

How the data were processed

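RNA of the rat supraoptic nucleus was measured on 9 Affymetrix arrays. Per the submitters' processing notes the authors used MAS5 to make the deposited intensities, which are linear. A MAS5 version and a genome build are not given in the sources used here. There are 8799 probe sets, 59 of them Affymetrix controls; of the remaining 8740, 7006 have 1 symbol in the platform annotation, 308 several and 1426 none. By gene ID 6985 of the 7006 matched RefSeq (GRCr8). Only probe sets with 1 symbol are named. Depth does not apply to arrays; their number limits the precision.

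From these values log2(signal + 4) was computed. A probe set was tested if its mean signal reached 23.1 (40th percentile), as 5247 did. Means of the 3 groups were fitted over the 9 arrays with limma 3.58.1 under R 4.3.3 (6 residual degrees of freedom, intensity trend), with two-sided moderated tests and Benjamini-Hochberg adjustment over all 5247 at 0.05; every adjusted p is from limma. The code was tested on simulated data. Same-letter arrays correlated at 0.17 to 0.47 in their deviations from group means (9 pairs) and other arrays at -0.33 to 0.12 (18 pairs), so the letters pair the arrays, as read from the data; the fit with the letter as a block is an alternative. Intervals are at 95%. Figures used Python 3.11.15 and matplotlib 3.10.9.

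The members and the gene lists were chosen with earlier results of these data known. Named are all member probe sets; Srebf1, Srebf2 and Insig1; probe sets among the up to 3 of each pathway list with the smallest unadjusted p in each comparison, with the gene's other tested probe sets beside them; and the 5 non-member probe sets most correlated with the mean member profile. Alternatives were pseudocounts of 1 and 16, quantile normalization, median centring, no trend, a 60th-percentile filter or none, fits on 2 groups, the replicate block, each array left out, and, added after the data were seen, leaving out control c and 1-day c together.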

Additional observations from a re-analysis of the deposited data

How the results depend on the processing

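Under all 20 alternatives limma called 0 member probe sets in each comparison. With the letters as a replicate block, which pairs the arrays, the counts of calls were 0, 0 and 0. None of all 5247 tested probe sets was called with or without the block. The unadjusted limma p of Cyp51 rc_AA963449_s_at with the block was 0.0251 at 3 days and 0.0257 from 1 to 3 days (adjusted p = 0.873 and 0.77). No other member was under 0.05 with the block. Leaving out each array in turn moved the member median between -0.20 and 0.07 at 1 day (0.046 with the 60th-percentile filter and -0.155 with none), between -0.38 and -0.15 at 3 days, and between -0.30 and -0.14 from 1 to 3 days. Of 1017 probe set values 961 kept their direction and 56 turned, 45 of these with an array left out. The cause was not tested. Many of the values that kept their direction could not have turned. The difference is the same by construction without the trend, with another filter, on 2 groups or with the block. It is also the same when the array left out belongs to the group not compared. The count of 961 is therefore no measure of stability. Lss U31352_at at 3 days was -0.012 after quantile normalization and -0.007 after median centring. Without control c and 1-day c together, the 1-day differences turned to -0.13 for Fdft1 M95591_g_at, 0.049 for rc_H33426_g_at, -0.072 for Sqle and 0.010 for Cyp51 rc_AA963449_s_at. The 3-day ones turned to -0.062 for Lss D45252_s_at, -0.15 for U31352_at and 0.050 for Cyp51 rc_AI230255_at, and the 3-day against 1-day ones to -0.02 for Cyp51 U17697_s_at and 0.10 for Dhcr7 AB016800_g_at. With 1 array left out, the 1-day ranges that crossed 0 were -0.20 to 1.09 for Cyp51 AB004096_at, -0.25 to 0.29 for rc_AA963449_s_at, -0.42 to 0.19 for Dhcr7 AB016800_g_at, -0.13 to 0.35 for Fdft1 M95591_g_at, -0.51 to 0.17 for rc_H33426_g_at, -0.034 to 0.22 for Fdps M89945mRNA_g_at, -0.47 to 0.21 for rc_AI180442_at and -0.20 to 0.35 for Sqle. At 3 days they were -0.42 to 0.87 for Cyp51 AB004096_at, -0.54 to 0.38 for rc_AI230255_at, -0.50 to 0.21 for Dhcr7 AB016800_at, -0.64 to 0.45 for Fdft1 M95591_g_at, -0.21 to 0.018 for rc_H33426_at, -0.18 to 0.003 for Fdps M89945mRNA_at, -0.94 to 0.039 for rc_AI180442_at, -0.41 to 0.14 for Idi1, -0.062 to 0.35 for Lss D45252_s_at and -0.15 to 0.26 for U31352_at. From 1 to 3 days they were -0.08 to 0.13 for Cyp51 U17697_s_at, -0.55 to 0.044 for rc_AA997614_s_at, -0.011 to 0.91 for rc_AI230255_at, -0.51 to 0.10 for Dhcr7 AB016800_g_at, -0.16 to 0.085 for Fdft1 M95591_at, -0.68 to 0.41 for M95591_g_at, -0.34 to 0.019 for rc_H33426_g_at, -0.73 to 0.25 for Fdps rc_AI180442_at, -0.37 to 0.059 for Lss D45252_s_at and -0.36 to 0.046 for U31352_at. With 3 arrays a group, the width of the intervals limits what could be seen. The printed standard errors and intervals are from the fit without the letters. Its median residual SD over all tested probe sets was 0.482 on 6 residual degrees of freedom. With the letter as a block it was 0.357 on 4, so part of the printed width is spread shared by arrays of 1 letter.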
